A study of Mus musculus with 84 samples.

Results

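TEAD2 is a DNA-binding transcription factor, and 1242 of the 7805 sites it occupied at day 1 of fibroblast reprogramming lay in chromatin that was accessible at day 1 and no longer listed as accessible at day 7. These sites, called closing TEAD2 peaks here, were chosen from peak lists alone: a TEAD2 peak had to overlap a day 1 ATAC peak of the control arm by 1 base or more, and no day 7 ATAC peak of that arm. They were 15.9% of all TEAD2 peaks (95% exact binomial interval 15.1 to 16.7%, counting error only). Another 5468 TEAD2 peaks overlapped a day 1 and a day 7 peak and are called lasting, and 1095 lay outside the day 1 list.

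Mouse embryonic fibroblasts (MEFs) had received Oct4, Klf4 and Sox2 by retrovirus, the factors that drive fibroblasts towards induced pluripotent stem (iPS) cells, together with a hairpin retrovirus. The hairpins were directed at luciferase (shLuc, the control), at Ythdf2 or Ythdf3, which encode readers of N6-methyladenosine in RNA, or at Tead2. Infected cells were selected with puromycin and grown in iCD1 medium, and day 0 was the day the virus was removed. ATAC-seq, which maps accessible chromatin, gave 1 peak list for each of the arms shLuc, shYthdf2 and shYthdf3 on days 1, 3, 5 and 7, so accessibility has no replicates. ChIP-seq with an antibody to TEAD2 gave 1 list at day 1, and its label names no hairpin. RNA was measured as TPM, each transcript's share of the library after correction for length, in groups of 2 libraries: the same 3 arms on the same 4 days, shTead2 with its own shLuc control at day 1, and ES cells, iPS cells and MEFs, each with the 3 hairpins. All reprogramming groups, controls included, carried the 3 factors and a hairpin. MEFs are a mixed primary culture and the ES cells are of a CBA/CaJ X C57BL/6J background.

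TEAD proteins bind DNA but activate little by themselves. They recruit the coactivators YAP and TAZ, which the kinases of the Hippo pathway keep out of the nucleus in dense or unstretched cells. In spread fibroblasts YAP and TAZ are active, and TEAD sites, many of them in distal enhancers shared with AP-1, drive genes of the matrix, of adhesion and of the cytoskeleton. Loss of such fibroblast enhancers is a known early step on the way to pluripotency.

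The closing peaks lay mostly away from promoters, so only 29 of the 1242 (2.33%) overlapped 1 of 32851 RefSeq promoter windows, which run from 250 bases before to 50 bases after a start site. The letters of 6 of these 29 sites are shown because they carry either a TEAD motif (GGAATG or its reverse complement CATTCC, in capitals) or a gene that comes up again in the RNA results. Each stretch is the part of the closing peak that lies within the 250 bases before the start site. It is read 5′ to 3′ on the strand of the promoter, from RefSeq on GRCm38.p6, the assembly of mm10.
Epha2, chr4:141301139-141301220, plus strand: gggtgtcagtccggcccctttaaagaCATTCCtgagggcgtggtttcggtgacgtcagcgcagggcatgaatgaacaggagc
Cramp1l, chr17:25015246-25015436, minus strand: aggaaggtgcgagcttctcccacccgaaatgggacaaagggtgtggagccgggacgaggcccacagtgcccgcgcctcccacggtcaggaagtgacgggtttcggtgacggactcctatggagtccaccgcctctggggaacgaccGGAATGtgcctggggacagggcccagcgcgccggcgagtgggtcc
2900089D17Rik, chr5:144256156-144256405, minus strand: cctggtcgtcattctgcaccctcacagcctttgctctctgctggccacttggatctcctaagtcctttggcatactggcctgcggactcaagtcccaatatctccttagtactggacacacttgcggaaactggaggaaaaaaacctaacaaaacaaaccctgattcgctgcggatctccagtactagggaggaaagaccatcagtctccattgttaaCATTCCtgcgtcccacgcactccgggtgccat
A930001C03Rik, chr19:4439309-4439493, plus strand: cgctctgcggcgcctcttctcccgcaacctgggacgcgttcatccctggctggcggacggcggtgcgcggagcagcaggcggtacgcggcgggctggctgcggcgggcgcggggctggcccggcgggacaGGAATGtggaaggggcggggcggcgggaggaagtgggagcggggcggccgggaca
Mex3a, chr3:88531696-88531918, plus strand: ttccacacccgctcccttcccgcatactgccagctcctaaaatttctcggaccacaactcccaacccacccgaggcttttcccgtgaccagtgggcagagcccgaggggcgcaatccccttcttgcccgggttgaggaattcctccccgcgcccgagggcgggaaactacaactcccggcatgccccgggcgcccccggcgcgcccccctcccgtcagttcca
Mllt3, chr4:88033547-88033657, minus strand: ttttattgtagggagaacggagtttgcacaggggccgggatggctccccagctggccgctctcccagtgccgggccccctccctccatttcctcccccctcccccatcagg

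The first 4 stretches each hold 1 TEAD match, which begins 56 bases before the start site of Epha2, an ephrin receptor. It begins 60 bases before that of Cramp1l, 32 before that of 2900089D17Rik and 120 before that of A930001C03Rik. The stretches of Mex3a and Mllt3 hold none, but both peaks run on beyond the promoter window, where no motif was sought. Over the 35 promoter windows that closing peaks overlapped, 6 (17.1%) held the TEAD motif anywhere in their 300 bases, against 14.7% of all windows and 15.9% of windows overlapped by lasting peaks, so the share was near that of promoters in general. The AP-1 motif TGANTCA stood in 1 window (2.86%, against 7.81% of all windows), and the GC box GGGCGG in 16 (45.7%, against 35.7% of all windows and 73.8% under lasting peaks). Both strands were searched, and no motif was sought outside promoters because sequence for distal sites was not used here.

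The promoter sites also differed from each other in what their genes did. Epha2 RNA read 38.8 and 25.8 TPM in shLuc at day 1 and 14.3 and 10.7 TPM at day 7, and did not overlap between days. Cramp1l read 8.56 and 8.44 TPM at day 1 and 9.69 and 6.06 TPM at day 7, so its libraries overlapped. Of 26 genes of overlapped promoters that could be tested, 2 were called between day 7 and day 1 by limma, a linear model fitted across all genes, in which 6.83% of all genes were called.

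The rule sets accessibility at day 1 and day 7 in shLuc, so those values only describe the members. Closing peaks had a median width of 202 bases and lay in day 1 ATAC peaks of a median 266 bases, against 230 and 495 bases for lasting peaks. Their median distance to the nearest shLuc day 7 peak was 10490 bases and the farthest, on chromosome 15, lay 739602 bases away. Just inside the rule, a closing peak at Scarf2 and another at Susd1 touched a day 7 peak without sharing a base, one at Eno3 missed by 1 base, and one at Il10rb by 6 bases. On the other side of the rule, lasting peaks at Kif2c, Nsmce2 and Chac1 shared 1, 2 and 2 bases with a day 7 peak. At day 1, the smallest overlaps among closing peaks were 1 base at Zfp608 and 2 bases at Sdc1 and at Lysmd4. For 93 closing peaks (7.49%) the day 1 ATAC peak that held them overlapped a day 7 peak elsewhere along its length, and 151 (12.2%) lay within 500 bases of a day 7 peak.

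Day 1 sites that held a TEAD2 peak closed less often than those that did not. Of 6710 TEAD2 peaks in day 1 accessible sites 18.5% closed (interval 17.6 to 19.5%), against 27501 of 54284 day 1 ATAC peaks without TEAD2 (50.7%). Width moved with this: TEAD2 peaks lay in wider sites, and wide sites closed less often. Among sites under 300 bases, 728 of 1702 TEAD2 peaks (42.8%) closed, against 60.5% of sites without TEAD2. From 300 up to 500 bases the shares were 16.3% and 39.8%, and from 500 up to 1000 bases 6.06% and 17.5%. Above that only 8 of 303 TEAD2 peaks and 5 of 409 other sites closed, and the intervals overlapped. These are counts of regions in single lists, with no sample replicate behind them, and the height of the peaks is not given in the lists.

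**Figure D1:**
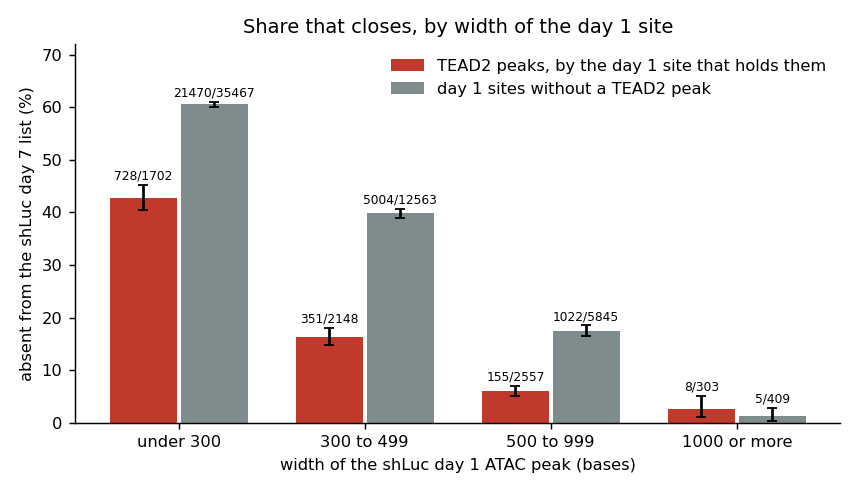
Share of regions absent from the shLuc day 7 ATAC list (y axis, percent) by width of the shLuc day 1 ATAC peak (x axis, bases), for TEAD2 peaks by the site that holds them and for day 1 sites without TEAD2, with counts above the bars and 95% exact binomial intervals (counting error only). In the 3 narrower classes the TEAD2 bar is the lower of the pair (42.8 against 60.5% in the narrowest), and in the widest class the intervals overlap.

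Closing and lasting TEAD2 peaks occupied different places relative to genes. A promoter window was overlapped by 2493 of 5468 lasting peaks (45.6%), far more often than the 2.33% of closing peaks. Of closing sites without TEAD2, 1.93% overlapped one. Within a gene body lay 631 closing peaks (50.8%), 138 (11.1%) lay up to 10 kb from the nearest one, 186 (15%) from there to 50 kb, and 202 (16.3%) over 100 kb away, against 4.21% of lasting peaks. Closing peaks mostly stood alone: 15 pairs lay within 10 kb, among them pairs at Tnc, Cyr61, Runx1t1 and Fam46b, and 1212 had no other closing peak that near. By chromosome, the share of accessible TEAD2 peaks that closed ran from 14% on chromosome 11 to 24.5% on chromosome 6.

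In the shLuc lists of days 3 and 5, which the rule did not use, most closing peaks were already absent. At day 3, 530 of 1242 (42.7%, interval 39.9 to 45.5%) still overlapped an ATAC peak, and at day 5 524 (42.2%). The absent shares were thus 57.3% and 57.8%. For comparison, 43.7% of all shLuc day 1 ATAC peaks were absent at day 3 and 36.2% at day 5, and 47% at day 7. Among closing sites without TEAD2, 22.5% were present at day 3 and 29.5% at day 5, so the TEAD2 sites were present more often on both days. Sites without TEAD2 were also narrower at day 1, at a median of 200 bases against 266 for those that held members. The part of width in this difference was not tested. The 2 lists did not pick the same members: 351 (28.3%) were in both, 179 (14.4%) at day 3 only, 173 (13.9%) at day 5 only and 539 (43.4%) in neither. The peak at Axl was among those lost by day 3, while the 1 in the body of Msn was listed on days 3 and 5.

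In the shYthdf2 arm more of these sites were still listed at day 7. There 1180 (95%) were present at day 1, 712 (57.3%) at day 3, 637 (51.3%) at day 5 and 636 (51.2%, interval 48.4 to 54%) at day 7. In the shYthdf3 arm 1124 (90.5%) were present at day 1, 564 (45.4%) at day 3, 315 (25.4%) at day 5 and 287 (23.1%, interval 20.8 to 25.6%) at day 7. Of all shLuc day 1 ATAC peaks, 32.9% were absent from the shYthdf2 and 45.1% from the shYthdf3 list at day 7. At day 1 those shares were 12.8% and 13.4%, at day 3 41% and 42.8%, and at day 5 37.4% and 48.1%. Closing sites without TEAD2 were present at day 7 in 33.3% (shYthdf2) and 18.3% (shYthdf3) of cases. They were already listed less often than members at day 1, in 77.7% (shYthdf2) and 76.2% (shYthdf3) of cases. The part of this lower start in the day 7 shares was not tested. Lasting TEAD2 peaks were present in 92.9 to 99.6% of cases in each list that the rule did not use.

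The length of the lists moved with this result. The shYthdf2 day 7 list held 75558 peaks, the shYthdf3 list 52389 and the shLuc list 51694. When each knockdown list was shortened to its 51694 widest peaks, a comparison added after seeing the data, 450 closing peaks (36.2%) remained listed in shYthdf2 and 280 (22.5%) in shYthdf3. At that length 19.6% and 18% of closing sites without TEAD2 were listed. A site chosen for its absence from 1 list will reappear in others to some extent, so the rule was also turned around. Of 860 TEAD2 peaks that closed by the same rule in shYthdf2, 74 (8.6%) were in the shLuc day 7 list. Of 1343 that closed in shYthdf3, 309 (23%) were. For shYthdf3 the exchange with shLuc was thus even, 23.1% one way and 23% the other, and for shYthdf2 it was 51.2% against 8.6%. The full lists were used for this exchange, with 75558 peaks at day 7 in shYthdf2 and 51694 in shLuc. It was not repeated at equal length, so the part of list length in it was not tested.

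**Figure D2:**
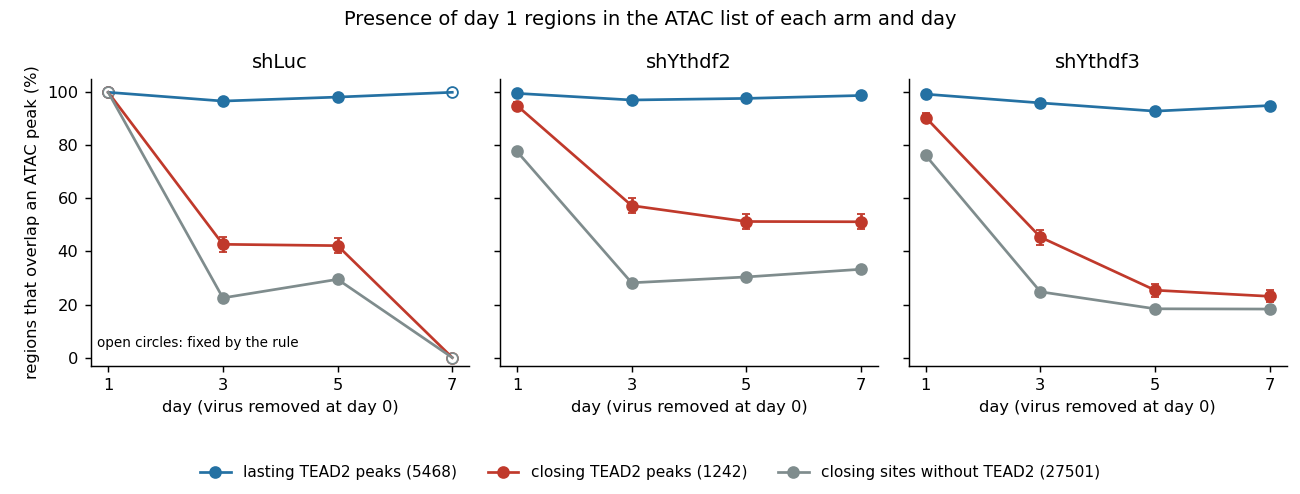
Percent of regions (y axis) that overlap an ATAC peak of each arm and day (x axis) for lasting TEAD2 peaks, closing TEAD2 peaks and closing sites without TEAD2, with 95% exact binomial intervals, and open circles for values the rule fixed. The closing TEAD2 peaks end at 51.2% in shYthdf2 and at 23.1% in shYthdf3 at day 7.

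Sites that shLuc lost late were listed at day 7 in the knockdowns more often. Of the 524 closing peaks still present in shLuc at day 5, 73.5% were in the shYthdf2 day 7 list, against 35% of the 718 that were not. For shYthdf3 these shares were 39.3% and 11.3%. Closing sites without TEAD2 showed the same order, with 64.9% and 20.1% in shYthdf2 and 41.6% and 8.54% in shYthdf3. Both knockdowns listed 240 members (19.3%) at day 7, shYthdf2 only 396 (31.9%), shYthdf3 only 47 (3.78%) and neither 559 (45%). In all 3 arms 441 members (35.5%) closed by the rule. In no list of any arm after day 1 stood 212 (17.1%), against 38.8% of closing sites without TEAD2, and 81 (6.52%) stood in every list except the shLuc list of day 7. Width moved with presence here too: in shYthdf2 43% of members in day 1 sites under 300 bases were listed at day 7 and 63.8% of those in sites of 300 up to 500 bases, against 30.8% and 42.1% of closing sites without TEAD2. In shYthdf3 the shares were 16.9% and 31.9% of members against 16.6% and 24.3% of sites without TEAD2, so the narrow class, which holds 728 members, showed a gap within its interval (14.2 to 19.8%).

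Named sites show the range. At Cyr61, which encodes a secreted matricellular protein and is a standard YAP target, the closing peak chr3:145685179-145685376 was absent from the shLuc list from day 5 on and stood in all 8 knockdown lists. Its neighbour chr3:145676332-145676512 was lost in shLuc by day 3, was listed in shYthdf2 on days 1, 5 and 7 and stood in no shYthdf3 list. At Ctgf, the related matricellular gene, chr10:24581161-24581331, 14110 bases from the gene body, was absent from shLuc from day 3, in every shYthdf2 list, and in shYthdf3 on days 1 and 3. At Axl, a receptor tyrosine kinase, chr7:25780799-25781005 within the gene body followed the same course as at Ctgf. The 2 peaks of Anxa1 at chr19:20366119-20366295 and chr19:20402663-20403028 were in no list of any arm after day 1.

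A member was assigned to the gene whose body it overlapped or, failing that, to the nearest gene body within 50 kb. This placed 955 of 1242 peaks (76.9%) at 866 genes, of which 789 had 1 closing peak, 67 had 2 and 10 had 3 or more. Nearness does not show which gene a site acts on. The genes were long, with a median body of 75.9 kb against 17.6 kb for all placed genes and 27.7 kb for genes with lasting peaks alone, and 300 of them also had a lasting peak. They were also more abundant: the median gene with a closing peak read 16 and 15.3 TPM in the shLuc day 1 libraries, and the median of all tested genes 5.82 and 4.6 TPM. Most peaks were assigned to 2010111I01Rik (5), named Aopep in RefSeq, and 3 each to 9 others, among them Fbn1 (fibrillin 1), Dlc1, Slit3 (a guidance ligand) and the transcription factor gene Foxp1.

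Among gene lists of interest, closing peaks were assigned to 9 of 26 YAP-TEAD targets, 5 of 24 TEAD and Hippo components, 7 of 29 collagen and matrix genes, 4 of 22 actin and contractile genes and 3 of 25 mesenchymal regulators and surface genes. They were assigned to 0 of 20 epithelial and 0 of 20 pluripotency genes. Of all placed genes, 4.09% had one, so a count of 0 in 20 is near that share. Lasting TEAD2 peaks were assigned to 14 YAP-TEAD targets, 14 TEAD and Hippo components, 8 matrix, 11 actin and 9 mesenchymal genes of the same lists. They were also assigned to 1 of 20 epithelial and 1 of 20 pluripotency genes, and to 20.8% of all placed genes. The fibroblast identity of the starting cells showed in the RNA: the summed TPM of 11 fibroblast markers was 2722 and 2833 in shLuc at day 1 and 1018 and 797 at day 7, while 8 pluripotency markers summed to 6.43 and 3.67 and then 96.1 and 125, and 6 epithelial markers to 18.5 and 16.3 and then 359 and 355. All libraries are bulk samples, in which fewer cells of a type and less RNA per cell cannot be told apart.

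The next question was whether RNA of the assigned genes changed from day 1 to day 7 in shLuc, in libraries separate from those that chose the sites. Each gene was tested with limma on log2(TPM + 1), with Benjamini-Hochberg adjustment over all 21303 genes, and an adjusted p under 0.05 is called a change. Of the 866 genes 785 passed the filter of 1 TPM or more in at least 2 libraries. Among them 97 fell (12.4%) and 23 rose (2.93%), while of all genes tested 2.9% fell and 3.92% rose. The median difference was -0.22, against 0.01 over all genes. Of placed protein-coding genes, the only ones a peak could be assigned to, 3.99% fell and 5.11% rose, with a median of 0.06. Genes with a lasting and no closing peak had 4.05% lower and 2.94% higher, with a median of 0.02, and genes with a closing site but no TEAD2 peak 5.29% and 5.4%, with a median of 0.00.

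Of genes with 2 or more closing peaks 17 of 73 were lower (23.3%) and 0 higher, with a median of -0.62. With replicate number as a block, which was read as a pairing in the time course, 143 members fell and 41 rose, while 4.97% and 6.06% of all genes did. Only 2 libraries stand behind each day: without shLuc day 1 replicate 1, day 1 replicate 2 or day 7 replicate 2, 51, 63 and 51 members were called in either direction in place of 120. In those fits fewer of all genes were called as well. The median difference of members in them was -0.16, -0.26 and -0.03, against 0.11, 0.00 and 0.15 over all genes. With all libraries, the median difference from day 1 was 0.01 at day 3, -0.16 at day 5 and -0.22 at day 7. Over all genes it was 0.04, 0.00 and 0.01.

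**Figure D3:**
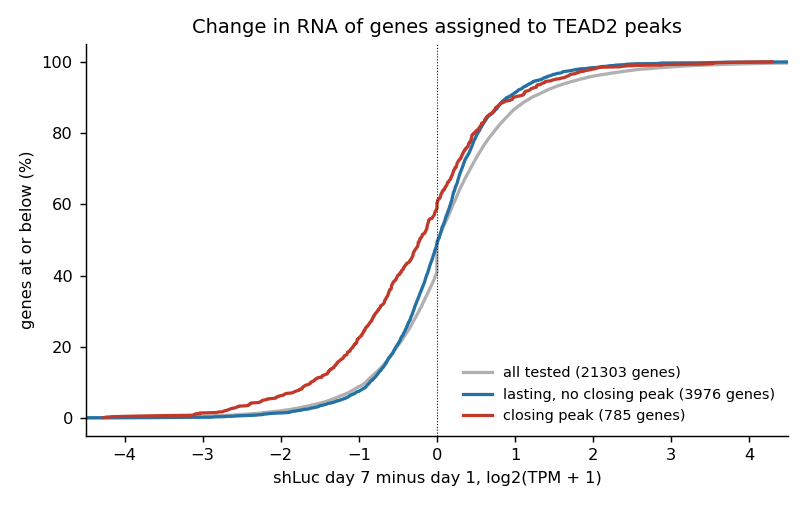
Cumulative share of genes (y axis, percent) against the fitted difference between shLuc day 7 and day 1 on the log2(TPM + 1) scale (x axis) for all tested genes, genes with lasting but no closing TEAD2 peaks and genes with a closing peak. The curve of the closing peaks lies above the others on the left: 22.4% of those genes were at a difference below -1, against 7.47% with lasting peaks alone and 8.81% of all.

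YAP-TEAD targets are the textbook output of TEAD. Of 26 on the list 8 fell and 1 rose, whether or not they had a closing peak. Ctgf read 388 and 192 TPM at day 1 and 36.3 and 73.3 TPM at day 7, a difference of -2.38 ± 0.43 (SE; limma adjusted p = 0.00232). The separate shLuc day 1 libraries of the Tead2 experiment read Ctgf lower, at 89.1 and 95.1 TPM. Axl read 218 and 260 TPM and then 62.9 and 43.2 TPM (-2.17, adjusted p = 2.44e-05). In both genes every day 7 library lay below every day 1 library.

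Edn1, which encodes the vasoconstrictor peptide endothelin 1, read 13.1 and 11.7 TPM and then 1.21 and 1.89 TPM (-2.40, adjusted p = 0.0139), a call that was lost on leaving out any 1 of the 4 libraries (adjusted p of 0.0556 to 0.0902). Cyr61 read 376 and 269 TPM and then 46.2 and 142 TPM, without overlap. Its difference of -1.96 had a limma adjusted p of 0.0688, and of 0.0266 with the replicate block. In the shLuc day 1 libraries of the Tead2 experiment Cyr61 read 116 and 114 TPM, between its 2 values of day 7 here. Nt5e, the ecto-5′-nucleotidase CD73, read 73.2 and 59.8 TPM and then 136 and 77.3 TPM (adjusted p = 0.529). Dlc1, Rbms3 and Wwc1 also missed the threshold (adjusted p of 0.128, 0.911 and 0.15).

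Of 23 TEAD and Hippo pathway genes tested 2 fell and 0 rose, with a median of -0.42, and 5 on the list had a closing peak. Vgll3, a vestigial-like cofactor that binds TEADs, read 38.8 and 42 TPM at day 1 and 19.9 and 15.5 TPM at day 7 (-1.15 ± 0.27, adjusted p = 0.0164), and lost the call on leaving out 3 of the 4 libraries in turn (adjusted p of 0.0719 to 0.15). Lats2, the kinase that phosphorylates YAP, read 48.2 and 45.7 TPM and then 23 and 15.2 TPM, a difference of -1.28 with an adjusted p of 0.0551, and of 0.00608 with the replicate block. Tead3 and the atypical cadherin gene Fat1 differed by 0.23 and -0.41 (adjusted p of 0.986 and 0.631). Tead2 itself, which had no closing peak, read 104 and 141 TPM at day 1 and 168 and 244 TPM at day 7, a difference of 0.73 (adjusted p = 0.107, and 0.012 with the replicate block), so the factor's RNA was not lower at day 7.

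The 2 largest falls among the named members were those of matrix genes. Of 29 on the list 18 fell and 0 rose, and 6 of the 7 with closing peaks were among them. Tnc, which encodes tenascin C, read 179 and 155 TPM at day 1 and 13.2 and 4.36 TPM at day 7, a difference of -4.26 ± 0.47 (adjusted p = 3.11e-05). Its 2 closing peaks, chr4:64076403-64076566 and chr4:64078204-64078426, lay 29387 and 31188 bases from the gene body.

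Lox, the lysyl oxidase that crosslinks collagen, read 231 and 173 TPM and then 13.7 and 6.84 TPM (-4.23, adjusted p = 0.000102). It had already reached 41.1 and 34.4 TPM at day 3, and Tnc 25.6 and 40 TPM, so for both most of the loss came by then. Fbn1, with 3 closing peaks in its body, read 164 and 148 TPM and then 67.2 and 30.4 TPM (-1.76, adjusted p = 0.037), and lost the call on leaving out 3 of the 4 libraries in turn (0.133 to 0.334). Col1a2, Loxl1 and Thbs2 fell by 2.65, 2.04 and 1.62 on the same scale, and Col4a2 differed by -0.58 (adjusted p = 0.256).

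Among the other named genes, Vcam1, an adhesion receptor for leukocytes, read 380 and 274 TPM and then 24 and 17.9 TPM (-3.90 ± 0.32, adjusted p = 1.6e-06), and its peak chr3:116114077-116114273 lies in the gene body. Tnfrsf11b, which encodes osteoprotegerin, went from 38.3 and 37.9 TPM to 2.25 and 0.52 TPM (-4.14). The guidance ligand gene Sema3c went from 103 and 64.4 TPM to 8.5 and 4.07 TPM (-3.57). In each of the 3 the days were far apart compared with the spread between their libraries.

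Ptgs2, the inducible cyclooxygenase, went from 325 and 131 TPM to 35.9 and 14.9 TPM (-3.10, adjusted p = 0.00189). Anxa1, which encodes the phospholipid-binding annexin A1, was the most abundant of them, at 1955 and 1280 TPM and then 236 and 210 TPM (-2.82, adjusted p = 0.00034). Lama2, Serpinb9b, Ghr, Hs6st2 and Igf1 completed the 12 genes with a standard symbol that fell most, with differences of -3.15, -3.11, -3.10, -3.04 and -3.04 and adjusted p of at most 0.0116. Of these Igf1 lost its call on leaving out 2 of the 4 libraries in turn (0.121 and 0.124).

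Of the 22 actin and contractile genes 14 fell and 0 rose, but none of the 4 with a closing peak (Tns1, Tns3, Itgav and Lpp) was called. Msn, which encodes moesin, a linker of actin to the membrane that was not on the list, went from 363 and 397 TPM to 130 and 100 TPM (-1.73, adjusted p = 6.83e-05). Of 25 mesenchymal genes 10 fell and 1 rose. Vim, the vimentin gene, fell by 1.43 (adjusted p = 0.0341), while Zeb2 with 2 closing peaks differed by -0.57 (adjusted p = 0.784). In the AP-1 and immediate early list, Fos, Ier3 and Myc had a closing peak and none passed the test.

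Closing did not always go with a fall. The 1 mesenchymal gene that rose was Foxd1, a forkhead factor, from 28.2 and 17.3 TPM to 283 and 255 TPM (3.54 ± 0.35, adjusted p = 1.03e-05), and it stood at 207 and 125 TPM by day 3. Its closing peak chr13:98365881-98366040 lay 9175 bases from the gene body. Tfap2c, which encodes the AP-2 gamma factor of trophoblast and germ cells, rose from 1.57 and 0 TPM to 19.9 and 16.2 TPM (3.56, adjusted p = 0.00069). Uba7, the activating enzyme for the ubiquitin-like protein ISG15, rose from 0.33 and 0 TPM to 25 and 18.5 TPM (4.29, adjusted p = 0.00129).

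Erich3, Palmd, Plce1, Bspry and the chemokine gene Ccl8 made up the rest of the 8 such genes that rose most, by 3.85, 3.37, 2.89, 2.89 and 3.52. Ccl8 peaked earlier, at 83.7 and 273 TPM on day 3 against 47.1 and 31.5 TPM on day 7, and its call was lost on leaving out 2 of the 4 libraries in turn (0.0728 and 0.0891). The sites near Tfap2c and Bspry missed a shLuc day 7 peak by only 77 and 73 bases, whereas that near Erich3 lay 52219 bases from one.

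Of the 10 genes with the most closing peaks, Fbn1 was the only one called. The others included Slit3 (15.7 and 22.2 TPM, then 8.79 and 5.11 TPM, adjusted p = 0.271), Stard13 (29.7 and 15.2 TPM, then 13.2 and 7.38 TPM, adjusted p = 0.526) and Foxp1 (65.2 and 84.8 TPM, then 98 and 75.5 TPM, adjusted p = 0.799). Slit3 and Stard13 did not overlap between days, and Foxp1 did. Dlc1 and 2010111I01Rik also missed the threshold (adjusted p of 0.128 and 0.735).

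**Figure D4:**
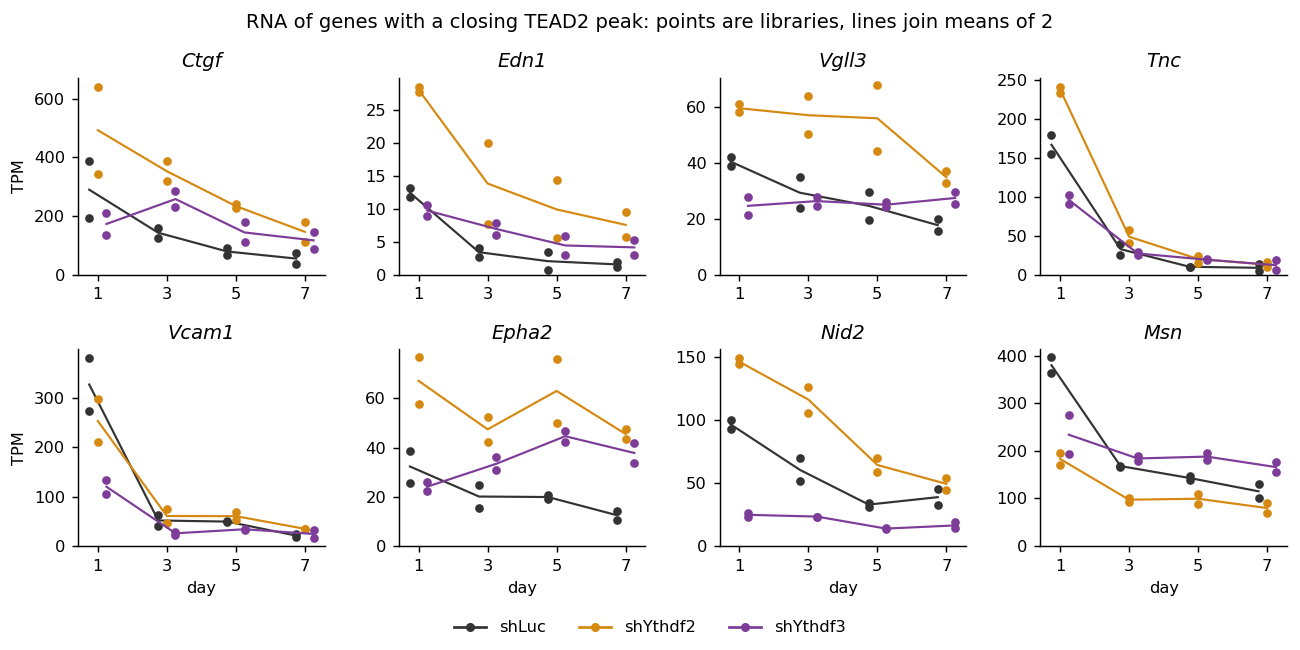
RNA level (y axis, TPM) by day (x axis) for Ctgf, Edn1, Vgll3, Tnc, Vcam1, Epha2, Nid2 and Msn, with a point for each library, a line through the means of 2 libraries and a colour for each arm. In shLuc all 8 were lower at day 7 than at day 1, and the shYthdf2 libraries lie above shLuc on every day for Ctgf, Edn1, Vgll3 and Epha2 with the exception of Ctgf at day 1, where the lower shYthdf2 library (344 TPM) is under the higher shLuc library (388 TPM).

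The 2 knockdowns were then compared with shLuc over the mean of the 4 days, in the same fit. They share the shLuc libraries, so the values are given side by side. Ythdf2 itself read 7.84 to 25.1 TPM in the 8 shYthdf2 libraries and 34.3 to 69.5 TPM in the 8 of shLuc, a difference of -1.60 (adjusted p = 0.0034). Ythdf3 read 5.21 to 20.6 TPM in shYthdf3 and 19 to 41.1 TPM in shLuc (-1.19, adjusted p = 0.0139), with overlap.

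In shYthdf2, 47 of 785 genes with a closing peak were higher (5.99%, against 2.08% of all genes) and 11 lower (1.4%, against 1.46%), with a median difference of 0.08, against -0.02 over all genes. With the replicate block 81 were higher (10.3%, against 3.99% of all genes) and 19 lower (2.42%, against 3.56%). In shYthdf3, 34 were higher (4.33%, against 2.76%) and 24 lower (3.06%, against 2.5%), with medians of 0.05 and 0.02, and with the replicate block 88 (11.2%, against 5.52%) and 50 (6.37%, against 4.94%). In either direction these were 58 calls in each knockdown, where 3.54% (shYthdf2) and 5.26% (shYthdf3) of all genes were called, and leaving out 1 library at a time gave 31 to 56 and 34 to 61. Calls over all genes fell too in most of these fits. Peaks were assigned to placed protein-coding genes only. Of those, 2.88% were higher and 1.9% lower in shYthdf2, and 3.36% and 3.4% in shYthdf3. For genes with a lasting and no closing peak the shares were 3.45% and 2.04% in shYthdf2, and 3.32% and 3.62% in shYthdf3. For genes with a closing site but no TEAD2 peak they were 3.34% and 1.72%, and 3.78% and 3.15%. From day 1 to day 7 within shYthdf2, the median difference of genes with a closing peak was -0.26, against 0.00 over all genes. The median was thus lower at day 7 there too, as in shLuc (-0.22 against 0.01). Within shYthdf3 it was 0.18, against 0.17 over all genes. Differences between the arms in this change were not tested. Genes with a closing peak in the day 7 list of shYthdf2 only were higher in shYthdf2 in 18 of 256 cases (7.03%). For genes with a peak in both knockdown lists it was 9 of 179 (5.03%), and with a peak in neither 20 of 374 (5.35%). A gene with several closing peaks can be in more than 1 of these groups.

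Several YAP-TEAD targets were higher in shYthdf2. Of the 26 on the list 8 were higher and 1 lower in shYthdf2, and 2 and 4 in shYthdf3. Among the 9 targets with a closing peak only Ctgf and Edn1 were called in shYthdf2. The other shYthdf2 calls were of targets without a closing peak. Ctgf had a 4-day mean of 307 TPM in shYthdf2, 173 TPM in shYthdf3 and 142 TPM in shLuc, a difference from shLuc of 1.28 ± 0.21 in shYthdf2 (adjusted p = 0.00357) and of 0.53 in shYthdf3 (adjusted p = 0.19). Edn1 was at 14.8, 6.29 and 4.84 TPM in the same order, with differences of 1.58 (adjusted p = 0.00468) and 0.61 (adjusted p = 0.254). Vgll3, from the list of TEAD and Hippo components, was at 51.8, 25.9 and 28 TPM, with differences of 0.90 (adjusted p = 0.00211) and -0.04.

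By day, the TEAD cofactor gene Vgll3 was above shLuc in shYthdf2 throughout. At day 7 it read 36.9 and 32.8 TPM in shYthdf2 and 19.9 and 15.5 TPM in shLuc, and at day 1 58.1 and 60.9 against 38.8 and 42 TPM, so it was already higher at day 1 and fell in both arms. Its closing peak chr16:65850175-65850401 was in the shYthdf2 list on days 1 and 7 and in shLuc on days 1 and 3. Cyr61 had means of 355, 310 and 264 TPM and passed in neither (adjusted p of 0.407 and 0.607). Axl went the other way in shYthdf3, with 68.2 TPM against 125 TPM in shLuc (-0.72, adjusted p = 0.00181), and was at 129 TPM in shYthdf2 (adjusted p = 0.838). Wwc1, the KIBRA gene upstream of the Hippo kinases, was lower in shYthdf3 (5.66 against 14.5 TPM, -1.14, adjusted p = 0.0432), but lost the call on leaving out 14 of 16 libraries in turn and without the filter on low values (0.062).

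Epha2, whose promoter site is printed above, had means of 55.7 TPM in shYthdf2, 35 TPM in shYthdf3 and 21.2 TPM in shLuc. It was higher in both knockdowns, by 1.41 ± 0.15 (adjusted p = 0.000102) and 0.75 ± 0.15 (adjusted p = 0.0059). Its closing peak was in no shLuc list after day 1 and stood in the day 7 lists of both knockdowns. The peak was absent from the shYthdf2 list of day 5 and from the shYthdf3 lists of days 3 and 5. At day 5 Epha2 nevertheless read 49.9 and 76 TPM in shYthdf2 and 42.4 and 46.9 TPM in shYthdf3, against 18.9 and 20.9 TPM in shLuc. In shYthdf3 Epha2 was not higher at day 1, with 22.4 and 25.9 TPM against 38.8 and 25.8 TPM in shLuc. At day 7 the 2 shYthdf2 libraries read 43.6 and 47.4 TPM, the shYthdf3 libraries 41.8 and 33.8 TPM and the shLuc libraries 14.3 and 10.7 TPM, without overlap. From day 1 to day 7 Epha2 fell by 1.29 in shLuc (adjusted p = 0.0122), a call lost on leaving out 2 of the 4 libraries in turn (0.128 and 0.148).

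The other genes with a standard symbol that were highest above shLuc in shYthdf2 were Serpinb9b, a serpin gene (1.68, adjusted p = 0.000212), and Ctnnd2, which encodes delta-catenin 2 (50.6 against 17.2 TPM, 1.47, adjusted p = 0.00012). Serpinb9b was also higher in shYthdf3 (1.13, adjusted p = 0.00208). Sema3c and Hs6st2 each differed by 1.16 in shYthdf2 (adjusted p of 0.0125 and 0.0119). The 4 such genes that fell most were the potassium channel subunit gene Kcnab1 (-1.12), the RNA-binding protein gene Mex3a (-0.85), the primase subunit gene Prim2 (-0.80) and Msn (-0.72, adjusted p = 0.00128). Mex3a, whose promoter carries a closing peak, was at 9.51 against 17.3 TPM (adjusted p = 0.0139), although that peak was in every shYthdf2 list. Kcnab1 and Prim2 lost their calls on leaving out 11 and 12 of 16 libraries in turn.

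In shYthdf3 Nid2, the nidogen 2 gene of basement membranes, fell. Its 8 libraries read 13.2 to 26.2 TPM there and 31.1 to 99.8 TPM in shLuc (-1.41 ± 0.11, adjusted p = 1.46e-05). In shYthdf2 Nid2 was higher than in shLuc, by 0.71 (adjusted p = 0.00268), and the difference between the knockdowns was not tested. Its closing peak, chr14:19706607-19706823, lies 44433 bases from the gene body and was in no shYthdf3 list, and in the shYthdf2 lists of days 1, 3 and 7. Mllt3, the AF9 gene of a transcription elongation complex, was at 41 against 98.2 TPM (-1.18, adjusted p = 0.00334), and Tfap2c at 1.83 against 7.88 TPM (-1.41, adjusted p = 0.00687, and 0.0797 with a pseudocount of 0.1). Vcam1 was at 50.9 against 112 TPM (-0.69, adjusted p = 0.019, and 0.0518 without 1 library).

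Among genes of promoter sites, 4931408C20Rik, a gene with a clone name that was singled out after its values were seen, rose in shYthdf3. It read 28.2 and 39.3 TPM in shYthdf3 and 7.16 and 7.76 TPM in shLuc at day 1, and 27.9 and 25.4 against 0.65 and 0 TPM at day 7, with no overlap on any day (3.56 ± 0.19, adjusted p = 7.77e-08). From day 1 to day 7 in shLuc 4931408C20Rik fell by 2.72 (adjusted p = 0.000253). Its closing peak, chr1:26687684-26687854, missed a shLuc day 7 peak by 21 bases and stood in all 4 shYthdf3 lists.

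Among genes with a standard symbol, Arpp21 had a mean of 5.93 TPM in shYthdf3 against 1.52 TPM in shLuc (1.47, adjusted p = 0.0313) and Enox1 8.2 against 2.98 TPM (1.29, adjusted p = 0.021). Ccl8 was at 247 against 85 TPM (1.40, adjusted p = 0.043), and Arpp21, Enox1 and Ccl8 lost their calls on leaving out 12, 6 and 13 of 16 libraries in turn. Fam46b, with 2 closing peaks in its body, was at 20.6 against 8.56 TPM (1.39 ± 0.19, adjusted p = 0.00054), and at day 7 read 12.2 and 12.9 TPM in shYthdf3 against 2.17 and 0.97 TPM in shLuc. Tmem107, a gene of the ciliary transition zone, fell by 1.40 (adjusted p = 0.0271) and lost the call on leaving out 8 of 16 libraries in turn.

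**Figure D5:**
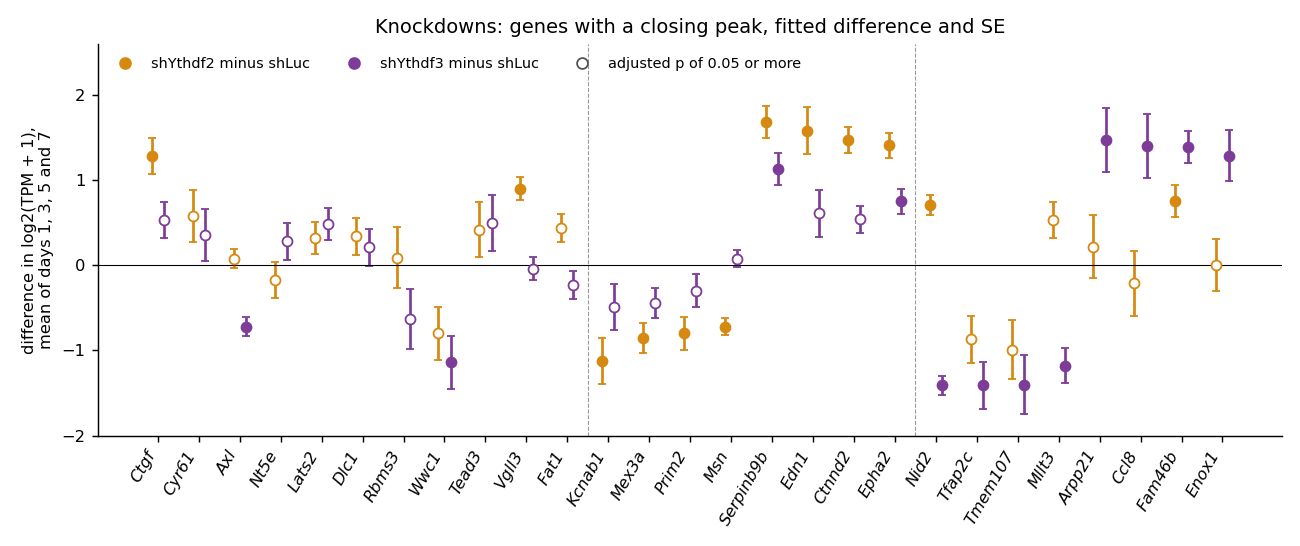
Fitted difference from shLuc with its SE (y axis, log2(TPM + 1), mean of days 1, 3, 5 and 7) in shYthdf2 and shYthdf3 for named genes with a closing peak (x axis), first the YAP-TEAD and Hippo genes, then those that moved most in shYthdf2 and in shYthdf3, with filled points for an adjusted p under 0.05. Ctgf and Vgll3 are filled in shYthdf2 alone, Epha2 in both, and Nid2 is filled on opposite sides of 0 (0.71 and -1.41).

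Knockdown of Tead2 at day 1 was compared with its own 2 shLuc libraries. Tead2 read 38 and 29.3 TPM with shTead2 and 92.9 and 92.1 TPM with shLuc, a difference of -1.44 ± 0.17 (limma adjusted p = 0.213). The fit, on 4 libraries with 2 residual degrees of freedom, thus did not call its own target. A count of 0 calls here cannot show whether these genes depend on TEAD2. Of 714 genes with a closing peak that were tested, 0 were called with limma, and 0.0879% of all 14783 genes were (0.00676% lower and 0.0812% higher). The count was also 0 with the other pseudocount, scaling and filter and with the replicate block. At an unadjusted p under 0.05 stood 28 members (3.92%), against 6.65% of all genes. The median difference was -0.07 for members and -0.06 over all genes. Without shTead2 replicate 2, 31 members were called, 18 lower (2.56%, against 0.859% of all genes) and 13 higher (1.85%, against 1.27%). That fit has 1 shTead2 library, which is assumed to vary like the shLuc libraries.

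Ctgf read 70.6 and 62.1 TPM with shTead2 and 89.1 and 95.1 TPM with shLuc, without overlap, but with an adjusted p of 0.655. Lox read 94.7 and 103 TPM against 139 and 135 TPM (-0.47, adjusted p = 0.575). Cyr61 read 134 and 84.5 TPM against 116 and 114 TPM, with overlap. The remaining members with the smallest unadjusted p, none of them called, were all higher: Uba7 at 6.61 and 10.3 against 0.49 and 1.87 TPM, Gtdc1 at 20.6 and 18.4 against 10.2 and 9.91 TPM, and Kdr, a receptor for vascular endothelial growth factor, at 32 and 10.5 against 3.44 and 2.25 TPM.

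Markers of other cells moved in the same libraries. The summed TPM of 6 endothelial markers, Kdr among them, was 179 and 102 with shTead2 and 17 and 17.9 with shLuc, and none of the 6 was at 0 with either hairpin. That of 6 macrophage markers was 94.4 and 15.6 against 26.3 and 19.2, and that of 11 fibroblast markers 1698 and 2500 against 2578 and 2561. Epha2, at 119 and 44.3 against 48 and 44.8 TPM, and Serpinb9b, at 56.6 and 9.51 against 12.6 and 11.7 TPM, were high in shTead2 replicate 1 alone. The part of these markers in the results was not tested.

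At the end points of the path, ES cells against MEFs with shLuc, 412 of 710 genes with a closing peak were lower in ES cells (58%, against 32.9% of all genes) and 136 higher (19.2%, against 30%). The median difference was -0.81, against 0.00 over all genes, and after median-ratio scaling -0.64 against 0.10. Of placed protein-coding genes 37.6% were lower and 33.7% higher. Of genes with a lasting and no closing peak 43.1% were lower and 29.6% higher, with a median of -0.22. Of genes with a closing site but no TEAD2 peak 38.8% were lower and 33.7% higher, with a median of -0.06. Fibroblast markers summed to 21.8 and 13.5 TPM in the ES libraries and 4610 and 4508 TPM in the MEF libraries.

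Single members spread widely between these cell types. Lox read 1.56 and 0 TPM in ES cells and 1074 and 1033 TPM in MEFs, and Tnc 0.46 and 0.04 against 243 and 238 TPM. Axl read 4.08 and 5.7 against 200 and 219 TPM (-5.17 ± 0.21, adjusted p = 4.5e-10), and Vgll3 0.65 and 0.09 against 28.3 and 26.5 TPM. All 4 were thus near 0 or low in ES cells, and all 4 had fallen from day 1 to day 7 in shLuc.

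Ctgf differed little, at 21.4 and 22.4 against 26.6 and 25.8 TPM (-0.25, adjusted p = 0.192), although it fell from day 1 to day 7. Epha2 and Nid2 were higher in ES cells, Epha2 at 56.3 and 59.7 against 20 and 22.2 TPM (1.42, adjusted p = 2.61e-07) and Nid2 at 94.7 and 111 against 23.5 and 21.5 TPM (2.14, adjusted p = 1.55e-07). Both had fallen in shLuc between day 1 and day 7 (Nid2 by 1.31, adjusted p = 0.00174). Tead2 read 75.8 and 101 TPM in ES cells and 81.3 and 95 TPM in MEFs, with overlap.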

How the data were processed

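The authors deposited peak lists with chromosome, start and end only, 1 per library, on mm10; the submitters' processing notes name MACS2, Bowtie2, deepTools, SAMtools and RSEM, with versions and settings not given in the sources used here. Peaks carry no score or height in the deposited lists, so overlap and width are the only peak values. The deposited expression values are TPM, made by the authors; TPM keeps no read total, so depth is unknown. Members and gene lists were chosen with earlier results of these data known. Closing peaks were found in Python 3.11.15 with NumPy 2.4.6 and pandas 2.3.3 by overlap code tested on simulated intervals against bedtools 2.31.1; intervals are exact binomial (SciPy 1.17.1). Genes were placed by a RefSeq table (GRCm38.p6, gene bodies only), 541 of 21178 by synonym.

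Limma 3.58.1 in R 4.3.3 was fitted to log2(TPM + 1) with a trended prior and 1 mean per group, separately for the time course (24 libraries, 12 residual degrees of freedom), the lines (18 and 9) and the Tead2 experiment (4 and 2), on genes that reached 1 TPM in 2 libraries or more; tests are two-sided, and fold changes on this scale understate those of low genes. Labels only number the replicates, so p-values measure the spread between these libraries, which may be technical. Deviations of same-numbered libraries correlated at 0.276 to 0.497 in the time course, read as a pairing, at -0.126 to 0.074 in the lines and at -0.022 in the Tead2 experiment, read as none. Named genes are Tead2, Ythdf2 and Ythdf3, YAP-TEAD and Hippo genes with a closing peak, the 10 genes with the most closing peaks, and called genes without overlap (or with 1 sign on each day) at 5 TPM or more whose symbol is no clone or model name: the 12 that fell and 8 that rose most by day and 4 each way per knockdown; for shTead2 the 4 smallest p. Others were named after their values were seen. Alternatives were pseudocount, filter, scaling, replicate block, left-out libraries, gene distance, overlap and peak width. Actinomycin D libraries, a spike-in table and the ChIP input were not used here.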

Additional observations from a re-analysis of the deposited data

How the results depend on the processing

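Requiring absence from the shLuc lists of days 3, 5 and 7 left 539 closing peaks in place of 1242, of which 27.3% were in the shYthdf2 and 7.61% in the shYthdf3 day 7 list. With ATAC peaks of 300 bases or more, 1232 peaks closed, of which 514 were shared with the 1242, and the shares were 45.2% and 18.2%. At equal list length, an alternative chosen after seeing the data, the shYthdf2 share was 36.2%. Covering 50% of the peak, or a distance of 500 bases, gave 1391 and 1091 peaks and kept the shares at 49.3 and 50.5% (shYthdf2) and 23.1 and 22.3% (shYthdf3). The replicate block gave 184 calls in place of 120 from day 1 to day 7. It gave 100 in place of 58 in shYthdf2 and 138 in place of 58 in shYthdf3. Over all genes it gave 2350 in place of 1454, 1609 in place of 755 and 2228 in place of 1121, in the same order. Leaving out 1 library at a time gave 51 to 80, 31 to 56 and 34 to 61 calls, and 0 to 31 with shTead2. The count fell by over 1.5 times, to between 31 and 38 in shYthdf2, without shLuc day 1 replicate 2, day 5 replicate 1 or 2 or day 7 replicate 2, or without shYthdf2 day 1 replicate 1 or 2, day 3 replicate 2, day 5 replicate 2 or day 7 replicate 1. In shYthdf3 it fell to between 34 and 38 without shLuc day 1 replicate 1 or 2, day 3 replicate 2 or day 5 replicate 2, or without shYthdf3 day 3 replicate 1 or 2. In each of the fits named here fewer of all genes were called too. The cause was not tested. No named gene that was called in the main fit or in an alternative changed sign between them. Changes of sign in genes called in neither were not counted. In the lines the replicate number did not pair libraries, and the block gave 545 calls in place of 548; with shTead2 it gave 0. The alternative on the motif window was not run, since no sequence of distal peaks was used here. Lists without height, single ATAC libraries and 2 RNA libraries per group limit what can be told.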
